A study of Mus musculus with 12 samples.

Results

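Each of 24675 genes was measured in mouse bone marrow-derived macrophages for the difference between the hepcidin effect at 3 h and the hepcidin effect at 1 h. Hepcidin is a liver peptide that governs iron balance, and the effect at a given time is the mean log2 expression with hepcidin minus the mean with phosphate-buffered saline (PBS), the vehicle control. The difference between both effects, hepcidin 3 h minus PBS 3 h less hepcidin 1 h minus PBS 1 h, is the interaction of treatment and time, and it used 12 of the 12 arrays of the series, 3 in each of the 4 groups. A positive interaction means a 3 h effect above the 1 h effect, and a negative one a 3 h effect below it.

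The macrophages were grown from the femur and tibia marrow of wild-type mice aged 8 to 10 weeks, for 7 days in medium with 30% L cell-conditioned medium, which supplies the growth factor M-CSF. They were plated at 150000 cells per well in 15% of that medium and moved to DMEM alone, a basal medium, for 1 h on the day of treatment. All 4 groups therefore share the removal of the M-CSF source, and the arrays of 3 h had been without it for longer than those of 1 h. The labels disagree on the dose: the text on growth names 1 µg/ml, while the text on treatment names 10 µg/ml and mentions only 1 h. Neither strain nor sex is stated. Whether the 3 samples within a group were drawn from different animals or cultures is not stated, so p-values reflect the spread among these samples alone, and that spread may be technical.

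Genes that respond to an inflammatory signal do so in waves. Early genes are made from promoters that are ready before the signal arrives, many of them through the transcription factor NF-kB, and their messengers carry elements that let decay proteins such as tristetraprolin remove them quickly. Later genes need remodelled chromatin or newly made proteins, and genes of the resting cell are switched off more slowly because their existing messengers first have to decay. The time course of a gene therefore combines synthesis and decay, and an array reads only the level that results.

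Arrays of a group correlated with r between 0.994 and 0.997, and the number of arrays limits the precision: the median standard error (SE) of the interaction was 0.14 on the log2 scale, against 0.10 for the effect at 1 h. Markers of the labelled cell type were high: the 20 macrophage identity genes on the array averaged 10.5 to 10.7 in every array, above the array median of 4.88. The marker lists of neutrophils, lymphocytes, dendritic cells, fibroblasts, mast cells and erythroid cells averaged 3.50 to 4.99 in every array, and 0 of their members passed the interaction. In bulk RNA, fewer cells of a type and less RNA per cell cannot be told apart.

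The genes were sorted by their group means alone. A gene entered a class when the effect at 1 h or at 3 h reached 2-fold, a log2 difference of 1. It was transient when it changed at least 2-fold at 1 h and kept under 50% of that change at 3 h, and sustained when it kept at least 50%. It was a delayed rise or a delayed fall when it reached 2-fold at 3 h only. This placed 181 genes: 9 were transient, 44 sustained, 92 delayed rises and 36 delayed falls. Every transient and sustained gene was higher with hepcidin, so no gene was 2-fold lower at 1 h. The classes are a description and were not tested. They were drawn from the same contrasts as the interaction, so the members that passed are counted beside the share of all genes and nothing is read from the count.

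The start regions of some members were read from the RefSeq promoter table of build GRCm38.p6, which gives 300 bases for each start site, in gene orientation. The NF-kB motif GGANTTTCC, searched on both strands, occurred in at least 1 window of 12 of the 37 sustained genes with a window (32.4%), of 1 of 7 transient genes (14.3%), of 4 of 73 delayed rises (5.48%) and of 0 of 26 delayed falls. The share among all tested genes with a window was 283 of 18380 (1.54%). The sequences below show the motif, in capitals, before genes of 3 of the classes. Ier3, an early gene of cell survival, was the transient gene with a match. Nfkbia, which encodes the NF-kB inhibitor, and Acod1, which encodes the itaconate enzyme, were sustained, and Gbp5, a guanylate-binding protein gene, was a delayed rise. Cxcl2 and Cxcl3 are neighbouring paralogs that encode neutrophil chemokines. They are shown as a pair because their interactions had opposite signs, though that of Cxcl2 did not pass (adjusted p = 0.278). Signal shared between the probe sets of such paralogs was not tested.
Ier3, chr17:35821463-35821762, plus strand: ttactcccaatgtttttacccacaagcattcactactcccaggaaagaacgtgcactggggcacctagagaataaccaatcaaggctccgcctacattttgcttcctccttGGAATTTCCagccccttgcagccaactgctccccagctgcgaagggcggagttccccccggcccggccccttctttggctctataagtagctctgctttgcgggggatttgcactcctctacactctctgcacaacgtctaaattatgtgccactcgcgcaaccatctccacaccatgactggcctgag
Nfkbia, chr12:55492598-55492897, minus strand: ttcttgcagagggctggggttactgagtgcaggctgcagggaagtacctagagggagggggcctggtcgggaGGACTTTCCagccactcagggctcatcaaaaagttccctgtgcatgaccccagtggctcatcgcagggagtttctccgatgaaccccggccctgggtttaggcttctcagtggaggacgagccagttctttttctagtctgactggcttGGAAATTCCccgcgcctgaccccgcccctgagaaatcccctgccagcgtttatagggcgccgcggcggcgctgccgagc
Acod1, chr14:103046762-103047061, plus strand: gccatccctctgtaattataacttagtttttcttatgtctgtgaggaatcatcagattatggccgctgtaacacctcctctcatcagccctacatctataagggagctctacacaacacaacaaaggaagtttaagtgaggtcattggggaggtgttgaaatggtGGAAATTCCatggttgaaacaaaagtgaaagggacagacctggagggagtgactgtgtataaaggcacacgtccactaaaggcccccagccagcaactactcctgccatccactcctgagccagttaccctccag
Gbp5, chr3:142496684-142496983, plus strand: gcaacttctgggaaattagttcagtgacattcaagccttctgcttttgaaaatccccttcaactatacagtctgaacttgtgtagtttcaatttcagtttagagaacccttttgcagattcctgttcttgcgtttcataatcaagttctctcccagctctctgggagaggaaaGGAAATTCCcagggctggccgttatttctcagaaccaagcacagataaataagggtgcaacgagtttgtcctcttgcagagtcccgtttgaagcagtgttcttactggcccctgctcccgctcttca
Cxcl2, chr5:90903649-90903948, plus strand: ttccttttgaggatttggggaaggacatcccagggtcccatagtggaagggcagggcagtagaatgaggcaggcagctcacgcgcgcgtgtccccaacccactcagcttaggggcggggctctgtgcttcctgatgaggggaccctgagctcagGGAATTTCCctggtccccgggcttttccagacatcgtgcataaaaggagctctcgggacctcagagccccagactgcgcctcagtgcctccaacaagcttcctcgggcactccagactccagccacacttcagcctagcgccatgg
Cxcl3, chr5:90785851-90786150, plus strand: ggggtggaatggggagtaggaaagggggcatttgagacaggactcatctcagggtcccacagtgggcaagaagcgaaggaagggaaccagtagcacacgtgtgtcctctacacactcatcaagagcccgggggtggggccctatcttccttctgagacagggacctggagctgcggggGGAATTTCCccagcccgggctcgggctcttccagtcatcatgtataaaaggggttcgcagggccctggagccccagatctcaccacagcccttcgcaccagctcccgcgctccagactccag
Relative to the start site the motif began at position -139 in Ier3, -85 in Acod1, -77 in Gbp5, -96 in Cxcl2 and -72 in Cxcl3, and Nfkbia held 2 copies. A match is a description of letters and shows no bound factor. Of the other motifs searched, the TATA box TATAAA lay in 22.4% of sustained windows and 12.2% of the windows of all tested genes, and the AP-1 motif TGANTCA in 8.16% and 7.27%.

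**Figure D1:**
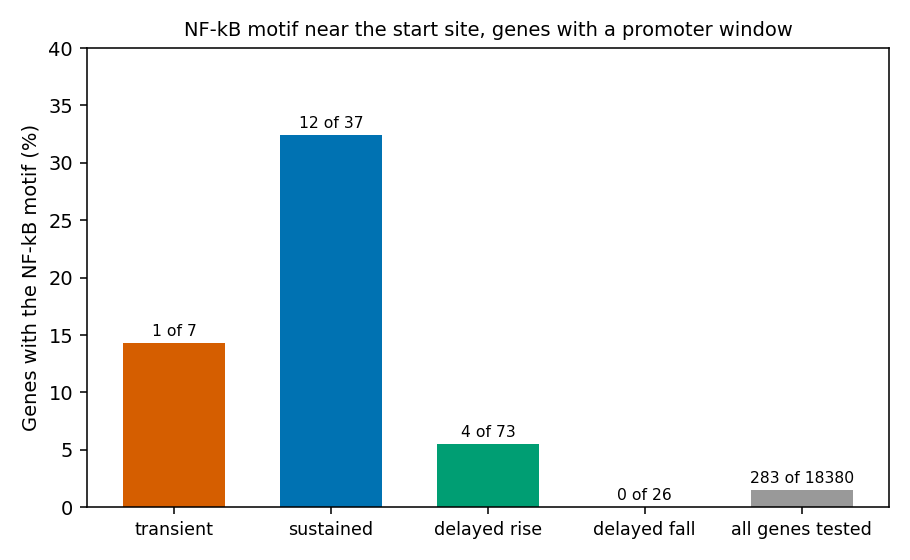
Share of genes (vertical axis, percent) with the NF-kB motif in at least 1 promoter window, for each time class and for all genes tested. Numbers over the bars are genes with the motif of genes with a window, and the sustained bar, 12 of 37, is the tallest.

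Across all genes the interaction had a median of 0.02 on the log2 scale, and 53.6% of genes had a positive value. At an adjusted p under 0.05, 254 genes (1.03% of those tested) passed, 129 with a 3 h effect above the 1 h effect (0.523%) and 125 below (0.507%), and 2488 genes had an unadjusted p under 0.05. Each array centred on its median gave 75 above and 106 below. The count was lower whichever array was left out, at 141 to 234, and each such fit had fewer arrays. It was 144 or 159 without PBS 1 h replicate 2 or 3, and 143 or 158 without hepcidin 1 h replicate 2 or 3. Without PBS 3 h replicate 2 or 3 it was 141 or 145. The genes below numbered 73 when PBS 1 h replicate 1 was left out and 82 when hepcidin 3 h replicate 3 was. Of the 254 genes, 117 passed whichever array was left out.

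The 129 genes above had interactions between 0.41 and 2.77 with a median of 0.74, and all 129 had a positive effect at 3 h. Of these, 26 had already passed at 1 h and 31 differed at least 2-fold between the times. The 125 genes below had interactions between -1.78 and -0.39 with a median of -0.67. For 111 of them the effect at 3 h was negative, and the other 14 kept a positive effect that had shrunk. Among protein-coding genes 127 passed above and 123 below, and 0 of 534 microRNA genes and 0 of 107 small nucleolar RNA genes passed.

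**Figure D2:**
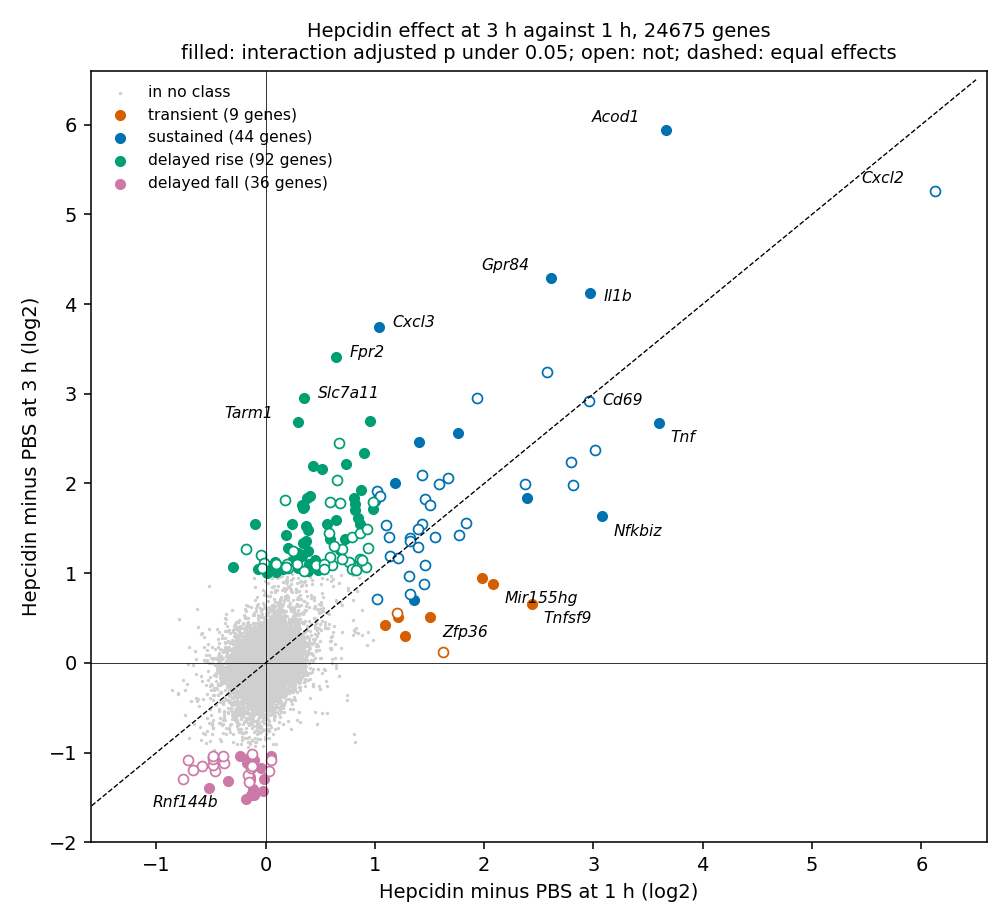
Hepcidin effect at 1 h (horizontal axis, log2) against the effect at 3 h (vertical axis, log2), each point 1 gene, coloured by time class and filled where the interaction passed. On the dashed line both effects are equal, and Acod1 and Fpr2 lie above it while Tnfsf9, Nfkbiz and Tnf lie below.

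The 1 h response was mostly kept. Of the 130 genes (0.527% of those tested) that rose at 1 h, 111 also rose at 3 h, which is 85.4% of the early risers and 16.0% of the 692 genes (2.80%) that rose at 3 h. The sign was held in 129 of the 130, and the median share of the 1 h effect present at 3 h was 115%. The interaction passed above for 26 of the 130, below for 15, and did not pass for 89. Of the 692 genes that rose at 3 h, 127 passed above. Of the 624 genes (2.53%) that fell at 3 h, 107 passed below and 517 did not pass. The mean effect at 1 h was negative in 463 of the 624, against 12504 of the 24494 genes in no class. All but 35 of the 624 are themselves among those 24494. At 1 h, 8 genes (0.0324%) fell. The counts of 3 h together fell from 1316 to 851 and 837 when PBS 3 h replicate 2 or 3 was left out.

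All 9 transient genes had a lower hepcidin mean at 3 h than at 1 h, which sorting genes by a reduced effect favours. Tnfsf9 (Entrez gene 21950), which encodes the T cell co-stimulator 4-1BB ligand, measured 6.25, 6.40 and 6.75 in the 3 PBS arrays of 1 h and 9.17, 8.67 and 8.88 with hepcidin. At 3 h it measured 6.43, 6.14 and 6.70 with PBS and 6.80, 7.10 and 7.35 with hepcidin. The 3 hepcidin arrays of 1 h stood far above all 9 others. At 3 h the arrays of both treatments did not overlap, but the effect did not pass (adjusted p = 0.0614). Of all genes, 12.3% had no overlap between treatments at 1 h and 21.7% had none at 3 h. The effect of Tnfsf9 was 2.44 at 1 h and 0.66 at 3 h, an interaction of -1.78 (SE 0.26, 95% interval -2.34 to -1.21, adjusted p = 0.00671), which passed and was the lowest of all genes that did.

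Zfp36 (Entrez gene 22695), which encodes tristetraprolin, a protein that destabilises cytokine messengers, measured 10.74, 10.75 and 10.75 with hepcidin at 1 h, against 9.13, 9.31 and 9.29 with PBS. At 3 h the values were 9.87, 10.19 and 10.12 against 9.52, 9.57 and 9.57. The hepcidin arrays stood lower at 3 h and the PBS arrays a little higher, so the gap was smaller from both sides, though without overlap. The interaction of -0.997 (SE 0.12, 95% interval -1.26 to -0.73, adjusted p = 0.00224) passed. Mir155hg (Entrez gene 100653389), the host transcript of the inflammatory microRNA miR-155, measured 3.61, 3.92 and 3.71 with PBS and 5.73, 5.61 and 6.16 with hepcidin at 1 h, and 3.56, 3.48 and 3.72 with PBS against 4.32, 4.49 and 4.59 with hepcidin at 3 h. The PBS arrays lay below the array median, the hepcidin arrays of 1 h were the highest, and those of 3 h lay between. Its interaction of -1.20 (SE 0.19, 95% interval -1.62 to -0.79, adjusted p = 0.0108) passed.

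Mir146, the gene of miR-146a, which restrains inflammatory signalling, was sustained and was named after its values were seen. It measured 3.13, 3.15 and 3.19 with PBS and 6.25, 5.77 and 5.84 with hepcidin at 1 h, and 3.53, 3.47 and 3.53 with PBS against 5.66, 5.97 and 5.62 with hepcidin at 3 h. The PBS arrays lay below the array median. The hepcidin arrays were high at both times, and the interaction of -0.56 (SE 0.17, 95% interval -0.93 to -0.19, adjusted p = 0.225) did not pass. The array reads the transcript of the gene and not the mature molecule. The mature 5′ arms are printed because they are what the host transcripts give rise to, with the seed, bases 2 to 8, in capitals, from RefSeq on build GRCm38.p6, and their seeds differ.
miR-155-5p, chr16:84714143-84714165, plus strand: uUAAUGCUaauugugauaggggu
miR-146a-5p, chr11:43374435-43374456, minus strand: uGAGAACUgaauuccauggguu
Of the 8 genes on the list of microRNA genes with inflammatory roles, 0 passed the interaction, and their median was -0.09.

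Ier3 measured 9.14, 8.62 and 8.51 with hepcidin at 1 h and 7.70, 7.79 and 7.65 at 3 h, while its PBS arrays of both times lay between 6.53 and 6.93. The arrays of the 2 hepcidin times did not overlap, and neither reached the PBS range. Its interaction of -1.03 (SE 0.21, 95% interval -1.48 to -0.58, adjusted p = 0.0358) passed, but it did so in only 3 of 12 fits that left out 1 array, with adjusted p up to 0.10. Ptger4, a receptor for prostaglandin E2, had effects of 1.22 and 0.51 and an interaction of -0.70 (SE 0.14, 95% interval -0.997 to -0.41, adjusted p = 0.0297). Junb, a subunit of the transcription factor AP-1, had effects of 1.09 and 0.43 and an interaction of -0.66 (SE 0.13, 95% interval -0.94 to -0.39, adjusted p = 0.0281). Both passed, and each did so in only 2 of 12 fits that left out 1 array, with adjusted p up to 0.0964 and 0.0822. In all, 7 of the 9 transient genes passed, where 0.507% of all genes passed below. The class is small and grew to 15 without PBS 1 h replicate 3. Its other 3 members are predicted or numbered gene models, which are counted here and not named.

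**Figure D3:**
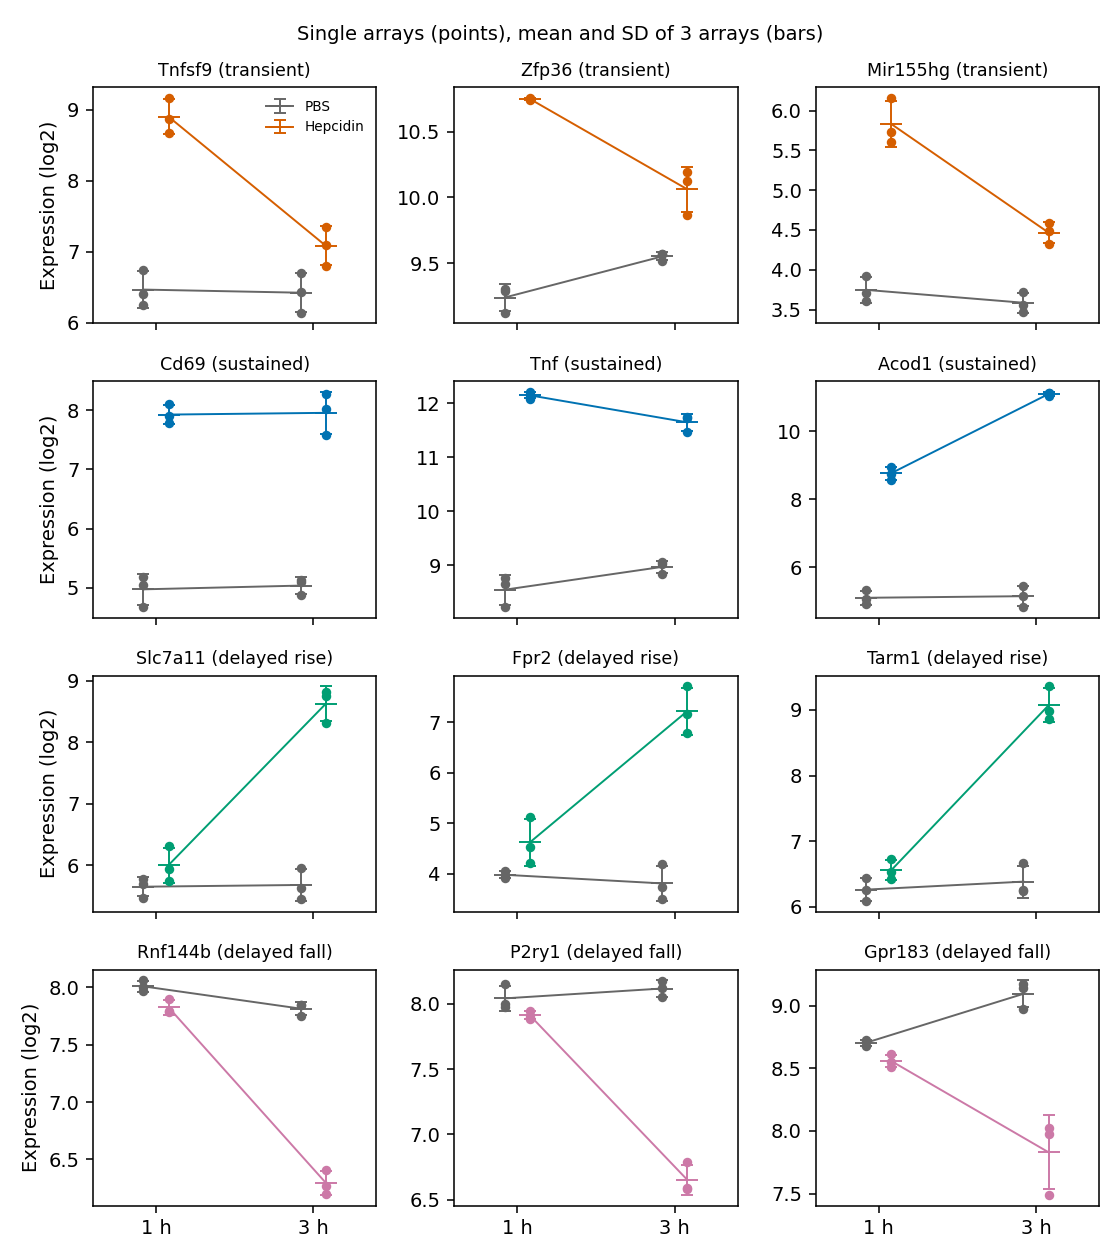
Expression on the log2 scale (vertical axes, scaled to each gene) in single arrays at 1 h and 3 h for 3 genes of each time class, PBS in grey and hepcidin in the colour of the class, with lines joining the means of 3 arrays and bars of 1 SD. By the sorting rule, transient genes approach PBS at 3 h, and sustained genes stay apart from it at both times. By the same rule, the delayed classes reach a 2-fold difference from PBS at 3 h only.

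The sustained class reached an effect of 6.12 at 1 h (Cxcl2) and 5.94 at 3 h (Acod1), the former from PBS arrays below the array median. Its members spread on both sides of equality. Of its 44 genes, 8 passed above and 4 below, against 0.523% and 0.507% of all genes. For 32 the interaction did not pass, which does not show that their effects were equal: the 95% confidence interval of the interaction lay within 2-fold on either side for 21 of those 32, and within 1.5-fold for 9 of the 44. The median interval reached 0.41 to each side.

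Some sustained genes had a smaller effect at 3 h than at 1 h. Nfkbiz (Entrez gene 80859), which encodes the nuclear NF-kB cofactor IkB-zeta, measured 6.18, 6.61 and 6.61 with PBS and 9.59, 9.51 and 9.53 with hepcidin at 1 h, and 7.10, 7.16 and 6.97 with PBS against 8.27, 8.94 and 8.92 with hepcidin at 3 h. Hepcidin arrays stood lower and PBS arrays higher at 3 h, and no PBS array reached a hepcidin array. The effect went from 3.08 to 1.63, and the interaction of -1.44 (SE 0.23, 95% interval -1.95 to -0.94, adjusted p = 0.0109) passed.

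Tnf (Entrez gene 21926), the tumour necrosis factor gene, measured 8.23, 8.65 and 8.76 with PBS and 12.20, 12.08 and 12.15 with hepcidin at 1 h, and 8.84, 9.05 and 9.02 with PBS against 11.47, 11.72 and 11.74 with hepcidin at 3 h. It was still 6.38-fold higher with hepcidin at 3 h, after 12.1-fold at 1 h, and the groups stood well apart at both times. The interaction of -0.92 (SE 0.18, 95% interval -1.31 to -0.54, adjusted p = 0.0296) passed, and passed in 4 of 12 fits that left out 1 array, with adjusted p up to 0.0904. Nfkbia (Entrez gene 18035) had effects of 2.39 and 1.84 and an interaction of -0.55 (SE 0.10, 95% interval -0.77 to -0.32, adjusted p = 0.0277), and Irf1, an interferon regulatory factor, had effects of 1.36 and 0.70 and an interaction of -0.66 (SE 0.13, 95% interval -0.95 to -0.38, adjusted p = 0.0323). Nfkbia passed in 2 and Irf1 in 3 of 12 fits that left out 1 array, with adjusted p up to 0.081 and 0.102. These 4 were the sustained genes that passed below.

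For other sustained genes the interaction did not pass. Cd69 (Entrez gene 12515), an early activation antigen of leukocytes, measured 4.68, 5.19 and 5.05 with PBS and 8.10, 7.90 and 7.79 with hepcidin at 1 h, and 5.10, 5.14 and 4.87 with PBS against 7.58, 8.27 and 8.02 with hepcidin at 3 h. The hepcidin arrays of both times overlapped each other and lay far above every PBS array. Its interaction was -0.03 (SE 0.24, 95% interval -0.56 to 0.49, adjusted p = 0.981), and its sign turned without any of 4 single arrays. Socs3, the feedback inhibitor of cytokine signalling, had effects of 1.77 and 1.42, and its interaction of -0.35 (SE 0.19, 95% interval -0.75 to 0.05, adjusted p = 0.578) did not pass. Cxcl2 and Cxcl1 kept effects of 5.27 and 2.37 after 6.12 and 3.02, and their interactions of -0.86 (SE 0.29, 95% interval -1.48 to -0.24, adjusted p = 0.278) and -0.64 (SE 0.43, 95% interval -1.59 to 0.30, adjusted p = 0.683) did not pass. Ptgs2, which encodes the prostaglandin enzyme COX-2, had effects of 2.58 and 3.25, and its interaction of 0.67 (SE 0.19, 95% interval 0.25 to 1.09, adjusted p = 0.178) did not pass either.

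A further set of sustained genes had a larger effect at 3 h than at 1 h. Acod1 (Entrez gene 16365) measured 5.05, 5.32 and 4.93 with PBS and 8.96, 8.75 and 8.58 with hepcidin at 1 h, and 5.17, 5.44 and 4.84 with PBS against 11.12, 11.13 and 11.03 with hepcidin at 3 h. PBS arrays were level while hepcidin arrays were higher again at 3 h, with no overlap between any hepcidin and PBS array. Acod1 was 12.6-fold higher with hepcidin at 1 h and 61.6-fold higher at 3 h, and the interaction of 2.28 (SE 0.21, 95% interval 1.83 to 2.74, adjusted p = 0.000313) passed.

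Il1b (Entrez gene 16176), the interleukin-1 beta gene, measured 4.04, 3.74 and 3.86 with PBS and 7.05, 6.71 and 6.78 with hepcidin at 1 h, and 4.34, 3.96 and 4.05 with PBS against 8.10, 8.13 and 8.47 with hepcidin at 3 h. Its PBS arrays lay below the array median, where background enters the signal, so no fold is given for it. The interaction of 1.16 (SE 0.19, 95% interval 0.75 to 1.56, adjusted p = 0.012) passed. Gpr84, a receptor that senses medium-chain fatty acids, had effects of 2.61 and 4.29 and an interaction of 1.68 (SE 0.18, 95% interval 1.28 to 2.08, adjusted p = 0.00115), which passed. Cxcl3 measured 2.91, 2.83 and 3.01 with PBS and 3.65, 4.59 and 3.61 with hepcidin at 1 h, and 2.83, 2.82 and 2.69 with PBS against 5.75, 6.87 and 6.95 with hepcidin at 3 h. Its hepcidin arrays were scattered but separate from PBS at both times. All PBS arrays and all hepcidin arrays of 1 h lay below the array median, where background enters the signal. Cxcl3 entered the class by a small margin with an effect of 1.03 (adjusted p = 0.332 at 1 h), and its interaction of 2.71 (SE 0.42, 95% interval 1.79 to 3.63, adjusted p = 0.00962) passed. Traf1, an adaptor of TNF receptors, had effects of 1.00 and 1.80, and its interaction of 0.80 (SE 0.11, 95% interval 0.56 to 1.05, adjusted p = 0.00537) passed. The other 3 that passed above, named after their values were seen, were Icam1, a leukocyte adhesion molecule, Ehd1, a membrane recycling protein, and Clec4e, the receptor Mincle, with interactions of 0.81, 0.83 and 1.06. Icam1 passed in 4 of 12 fits that left out 1 array, and the other two in all 12.

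The delayed rises formed the largest class, and 54 of its 92 genes passed above, where 0.523% of all genes did. Those named from it include genes of receptors, transporters, enzymes, chemokines, interferon-inducible proteins and the NF-kB list. Of the 92, 33 had already risen at 1 h by less than 2-fold. The median effect was 0.42 at 1 h and 1.27 at 3 h.

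Fpr2 (Entrez gene 14289), a formyl peptide receptor that guides phagocytes, measured 3.91, 4.05 and 3.98 with PBS and 4.52, 5.12 and 4.22 with hepcidin at 1 h, and 3.50, 4.18 and 3.74 with PBS against 6.78, 7.71 and 7.16 with hepcidin at 3 h. Hepcidin arrays of 1 h lay just above PBS and those of 3 h far above. All PBS arrays and 2 of the 3 hepcidin arrays of 1 h were below the array median, where background enters the signal. Its interaction of 2.77 (SE 0.36, 95% interval 1.99 to 3.55, adjusted p = 0.00331) passed. Tarm1 (Entrez gene 245126), an activating receptor of myeloid cells, measured 6.43, 6.26 and 6.09 with PBS and 6.73, 6.52 and 6.42 with hepcidin at 1 h, and 6.66, 6.23 and 6.25 with PBS against 9.36, 8.99 and 8.87 with hepcidin at 3 h. At 1 h the treatments overlapped and at 3 h they were widely apart. Its interaction was 2.39 (SE 0.21, 95% interval 1.93 to 2.86, adjusted p = 0.000313), and it passed.

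Fas (Entrez gene 14102), the death receptor gene, measured 6.68, 6.46 and 6.64 with PBS and 7.92, 7.56 and 7.17 with hepcidin at 1 h, and 6.97, 6.85 and 6.73 with PBS against 9.62, 9.52 and 9.50 with hepcidin at 3 h. Its hepcidin arrays were spread at 1 h and close together at 3 h, and lay above PBS at both times. The interaction of 1.74 (SE 0.21, 95% interval 1.29 to 2.19, adjusted p = 0.00213) passed. Other receptors among the delayed rises were Gpr18, a G protein-coupled receptor of leukocytes, and Hcar2, the receptor for nicotinic acid and beta-hydroxybutyrate. Gpr18 had effects of 0.44 and 2.20 and an interaction of 1.76 (SE 0.20, 95% interval 1.32 to 2.20, adjusted p = 0.00139). Its PBS arrays and its hepcidin arrays of 1 h lay below the array median. Hcar2 had effects of 0.73 and 2.21 and an interaction of 1.48 (SE 0.25, 95% interval 0.94 to 2.02, adjusted p = 0.0129), and both passed.

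Slc7a11 (Entrez gene 26570), the cystine-glutamate exchanger that feeds glutathione synthesis, measured 5.69, 5.47 and 5.78 with PBS and 6.31, 5.75 and 5.94 with hepcidin at 1 h, and 5.96, 5.63 and 5.44 with PBS against 8.82, 8.30 and 8.75 with hepcidin at 3 h. At 1 h its treatments overlapped, and at 3 h every hepcidin array was above every PBS array by more than 2 log2 units. The interaction of 2.60 (SE 0.25, 95% interval 2.06 to 3.14, adjusted p = 0.000417) passed. Slco3a1, an organic anion transporter, had effects of -0.10 and 1.55 and an interaction of 1.65 (SE 0.14, 95% interval 1.35 to 1.95, adjusted p = 0.000286). The neighbouring membrane protein genes Tmem176a and Tmem176b had interactions of 1.46 (SE 0.21, 95% interval 1.00 to 1.92, adjusted p = 0.00615) and 1.65 (SE 0.23, 95% interval 1.14 to 2.16, adjusted p = 0.00565). These 3 passed as well.

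Nos2 (Entrez gene 18126), the inducible nitric oxide synthase, measured 5.09, 4.92 and 4.94 with PBS and 4.83, 4.63 and 4.59 with hepcidin at 1 h, and 4.74, 4.95 and 4.62 with PBS against 5.92, 5.87 and 5.72 with hepcidin at 3 h. The hepcidin arrays lay below PBS at 1 h and above it at 3 h. PBS arrays were near the array median, and the hepcidin arrays of 1 h were below it. The effect of -0.30 at 1 h did not pass (adjusted p = 0.508), whereas the effect of 1.07 at 3 h and the interaction of 1.37 (SE 0.14, 95% interval 1.06 to 1.68, adjusted p = 0.00078) did. Nox1, an NADPH oxidase that makes superoxide, went from 0.90 to 2.33, and its interaction of 1.43 (SE 0.15, 95% interval 1.12 to 1.75, adjusted p = 0.000722) passed.

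Gbp5 and Gbp2, interferon-inducible guanylate-binding proteins, had interactions of 1.45 (SE 0.26, 95% interval 0.88 to 2.02, adjusted p = 0.0206) and 0.90 (SE 0.15, 95% interval 0.58 to 1.22, adjusted p = 0.0122), and both passed, Gbp5 in 6 of 12 fits that left out 1 array, with adjusted p up to 0.0648. Ifi205, a further interferon-inducible gene, measured 4.33, 4.53 and 4.42 with PBS and 6.11, 7.21 and 7.31 with hepcidin at 3 h. All its PBS arrays lay below the array median, as did the PBS arrays and the hepcidin arrays of 1 h of Gbp5. The arrays of Ifi205 were widely scattered, and its interaction of 1.78 (SE 0.45, 95% interval 0.80 to 2.76, adjusted p = 0.108) did not pass. Of the 12 fits that left out 1 array, it passed in the one without hepcidin 3 h replicate 1 (adjusted p = 0.0194).

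The delayed falls were moderate in size, and 18 of the 36 passed below, where 0.507% of all genes did. None of the 36 passed at 1 h by limma, and their median effect went from -0.16 at 1 h to -1.17 at 3 h. The mean effect at 1 h was already negative in 33 of them, against 12504 of the 24494 genes in no class. The treatments did not overlap at 1 h in 17 of them, against 12.3% of all genes. Rnf144b (Entrez gene 218215), a ubiquitin ligase gene, measured 8.00, 7.97 and 8.06 with PBS and 7.78, 7.90 and 7.79 with hepcidin at 1 h, and 7.85, 7.85 and 7.75 with PBS against 6.20, 6.27 and 6.41 with hepcidin at 3 h. Its 3 hepcidin arrays of 3 h were more than 1 log2 unit below all others. The interaction of -1.34 (SE 0.10, 95% interval -1.56 to -1.12, adjusted p = 0.000277) passed.

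P2ry1 (Entrez gene 18441), a receptor for ADP, measured 7.98, 8.15 and 8.00 with PBS and 7.95, 7.90 and 7.89 with hepcidin at 1 h, and 8.12, 8.18 and 8.05 with PBS against 6.59, 6.79 and 6.58 with hepcidin at 3 h. The same separation was seen, with the hepcidin arrays of 3 h alone at the bottom. Its interaction was -1.34 (SE 0.11, 95% interval -1.57 to -1.10, adjusted p = 0.000286). Gpr183 (Entrez gene 321019), an oxysterol receptor that guides immune cells, measured 8.68, 8.71 and 8.73 with PBS and 8.55, 8.61 and 8.51 with hepcidin at 1 h, and 9.18, 9.14 and 8.97 with PBS against 7.98, 8.03 and 7.49 with hepcidin at 3 h. Here the PBS arrays stood higher at 3 h than at 1 h while hepcidin arrays stood lower. Its interaction was -1.12 (SE 0.17, 95% interval -1.49 to -0.75, adjusted p = 0.00826), and both receptor genes passed.

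Angptl4 (Entrez gene 57875), a secreted inhibitor of lipoprotein lipase, measured 6.48, 6.77 and 6.65 with PBS and 6.35, 6.85 and 6.63 with hepcidin at 1 h, and 6.47, 6.98 and 6.59 with PBS against 5.08, 5.46 and 5.22 with hepcidin at 3 h. The treatments overlapped at 1 h and were apart at 3 h, and its interaction of -1.41 (SE 0.22, 95% interval -1.89 to -0.93, adjusted p = 0.00983) passed. Abcd2, a peroxisomal transporter of very long-chain fatty acids, and Lpin1, a phosphatidate phosphatase, had interactions of -1.16 (SE 0.09, 95% interval -1.35 to -0.96, adjusted p = 0.000277) and -1.09 (SE 0.09, 95% interval -1.29 to -0.88, adjusted p = 0.000313), and both passed. Hpgd, which breaks down prostaglandins, had level hepcidin arrays and higher PBS arrays at 3 h than at 1 h. Its PBS change was 1.15 (adjusted p = 0.0224) and its hepcidin change -0.02 (adjusted p = 0.972). The Hpgd interaction of -1.17 (SE 0.26, 95% interval -1.74 to -0.61, adjusted p = 0.0587) did not pass. Of the 12 fits that left out 1 array, it passed in the one without PBS 3 h replicate 3 (adjusted p = 0.032). It also passed with the trended prior (0.0303), with genes above the median level alone (0.0341) and with each array centred on its median (0.0449).

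Further falls that passed below were Fam214a at -1.37 (SE 0.13, 95% interval -1.65 to -1.10, adjusted p = 0.000313), Lbh, a transcriptional cofactor, at -1.29 (SE 0.12, 95% interval -1.55 to -1.03, adjusted p = 0.000313), and Snx24, a sorting nexin, at -1.28 (SE 0.20, 95% interval -1.71 to -0.84, adjusted p = 0.01). Arhgap25 had an interaction of -1.18 and Map2k6, a kinase upstream of p38, one of -1.13. Rgs2, which shortens G protein signals, had an interaction of -0.88. These 3 passed with adjusted p = 0.0197, 0.0378 and 0.0297, and in 6, 3 and 3 of 12 fits that left out 1 array, with adjusted p up to 0.0631, 0.112 and 0.0948.

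Outside the classes, 163 genes passed the interaction without reaching 2-fold at either time, 67 above and 96 below. Zfp36l1 (Entrez gene 12192), a paralog of tristetraprolin, measured 9.11, 9.37 and 9.55 with PBS and 9.99, 10.13 and 10.15 with hepcidin at 1 h, and 9.57, 9.67 and 9.63 with PBS against 9.08, 9.40 and 9.33 with hepcidin at 3 h. Hepcidin arrays lay above PBS at 1 h and below it at 3 h. The effect of 0.75 at 1 h passed, that of -0.35 at 3 h did not (adjusted p = 0.106), and the interaction of -1.10 (SE 0.16, 95% interval -1.44 to -0.75, adjusted p = 0.00615) passed. The mean effects at the 2 times had opposite signs in 74 of the 254 genes, which choosing genes by the difference favours, and the effect passed at both times in 35 of the 254.

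The class borders cut through a continuous range. On the inside of the 1 h threshold stood Traf1 with an effect of 1.0009, and on the outside Gadd45b with 0.9994. At 3 h the nearest delayed rise was Lancl3 with 1.0058 and the nearest gene outside Lpcat2 with 0.9982, and the nearest delayed fall was Klf4 with -1.0193 and the nearest outside Fbxo32 with -0.9245. Ier3 kept 47.8% of its 1 h effect and counted as transient, and Irf1 kept 51.2% and counted as sustained.

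The interaction is also the change from 1 h to 3 h with hepcidin minus the same change with PBS. Over all genes, 111 (0.450%) differed between the PBS times and 1246 (5.05%) between the hepcidin times. The PBS count was 319 with the trended and robust prior, 285 with array weights and 333 with genes above the median level alone, and 64 with median centring. It fell to 60 without hepcidin 1 h replicate 2 and to between 23 and 40 without any of the 6 PBS arrays, and the hepcidin count to 721 or 763 when hepcidin 1 h replicate 2 or 3 was left out and to 803 for hepcidin 3 h replicate 3. Of the 254 genes past the interaction, 230 moved further with hepcidin and 24 further with PBS. The same split was not counted over all genes, so nothing particular to the 254 is read from it. In 138 of the 254 the mean changes of the arms had opposite signs, which choosing genes by the difference favours. The PBS change itself passed in 15 of the 254. Herpud1 (Entrez gene 64209), which encodes a protein of endoplasmic reticulum-associated degradation, changed in both arms. It measured 9.27, 9.03 and 9.17 with PBS and 9.71, 9.37 and 9.41 with hepcidin at 1 h, and 8.52, 8.32 and 8.28 with PBS against 10.06, 10.12 and 10.20 with hepcidin at 3 h. PBS arrays were lower at 3 h than at 1 h and hepcidin arrays higher, and the interaction of 1.42 (SE 0.15, 95% interval 1.10 to 1.74, adjusted p = 0.000765) held a PBS change of -0.79 (adjusted p = 0.00913) and a hepcidin change of 0.63. Abcd2 showed the reverse, with a PBS change of 0.43 (adjusted p = 0.0151) and a hepcidin change of -0.73.

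**Figure D4:**
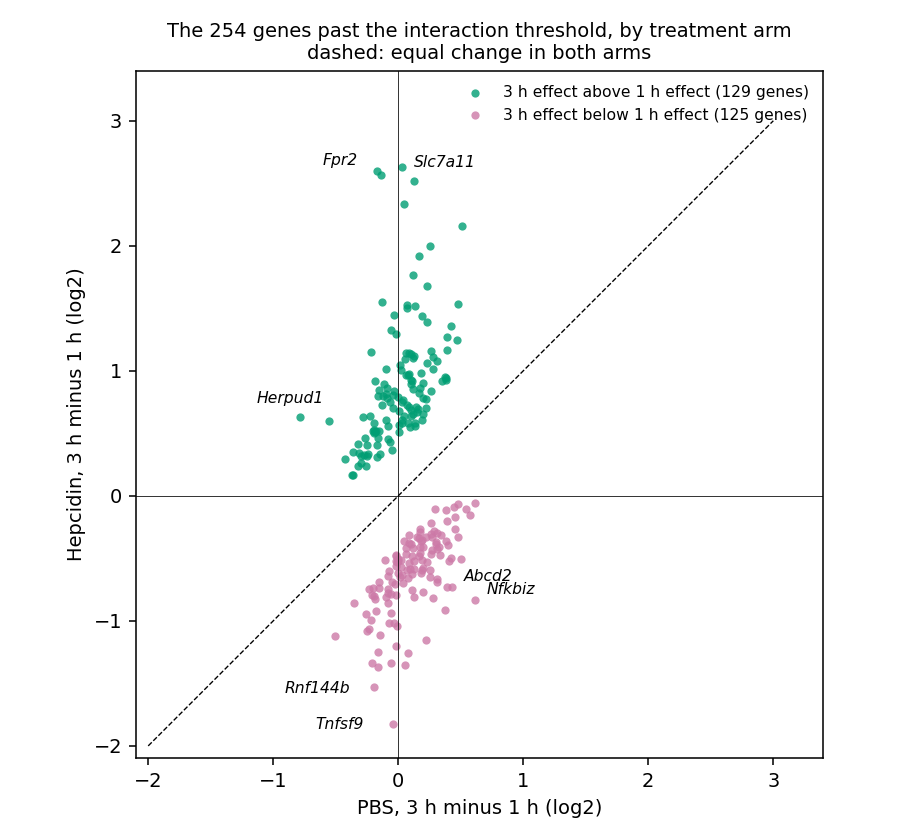
Change from 1 h to 3 h with PBS (horizontal axis, log2) and with hepcidin (vertical axis, log2) for the 254 genes past the interaction, green where the 3 h effect was above the 1 h effect (129 genes) and pink where it was below (125 genes). The points spread further along the vertical axis, and 230 of the 254 moved further with hepcidin, a split not counted over all genes.

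Each list is given by the members that passed and its median interaction, beside the median of 0.02 over all genes, of which 0.523% passed above and 0.507% below. All genes include those of low expression, and 27 of the 254 genes that passed had a PBS mean below the array median. The lists were written with earlier results of these data known, and no list was tested. Members outside the naming rule are named because they passed. Of 25 immediate early genes on the array, mainly of transcription factors, 2 passed below, Ier3 and Junb, 0 passed above, and the list's median was -0.25. Of 28 dampers of kinase, cytokine and messenger signals, 4 passed below, Zfp36, Zfp36l1, Rgs2 and Btg2, and 1 above, Irak3, with a median of -0.14. Btg2 passed in 10 of 12 fits that left out 1 array. Irak3, an inhibitor of Toll-like receptor signals, had an interaction of 0.74 (SE 0.10, 95% interval 0.52 to 0.96, adjusted p = 0.00459).

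Of the 16 members of the NF-kB list, the inhibitor gene Nfkbia and the cofactor gene Nfkbiz passed below, and the subunit gene Nfkb2, the adaptor Traf1 and the A20-binding protein gene Tnip1 passed above, with a median of 0.12. Nfkb2 had effects of 0.98 and 1.71 and an interaction of 0.73 (SE 0.14, 95% interval 0.43 to 1.04, adjusted p = 0.0296), which passed in 3 of 12 fits that left out 1 array, with adjusted p up to 0.0848. Tnip1 had an interaction of 0.96 (SE 0.12, 95% interval 0.69 to 1.22, adjusted p = 0.00276).

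Of 21 inflammatory enzymes and secreted effectors, 7 passed above and 0 below, against 0.523% and 0.507% of all genes, with a median of 0.67. Besides Acod1 and Nos2 these were Sod2, the mitochondrial superoxide dismutase, Mmp14, a membrane-bound matrix protease, Cp, Serpinb2, an inhibitor of plasminogen activators, and Arg2, a mitochondrial arginase. Serpinb2 and Arg2 passed in 2 and 3 of 12 fits that left out 1 array. Sod2 had effects of 0.82 and 1.77 and an interaction of 0.96 (adjusted p = 0.00115). Mmp14 had an interaction of 1.10 (SE 0.18, 95% interval 0.71 to 1.49, adjusted p = 0.0122). Lcn2 and Saa3, which encode an acute phase siderophore binder and serum amyloid A3, had interactions of 1.64 and 1.38 with SE of 0.70 and 0.54, and neither passed. Of 33 inflammatory receptors and adhesion molecules, 9 passed above and 0 below, against the same 0.523% and 0.507%, with a median of 0.29. They were Fpr2, Gpr84, Tarm1, Fas, Clec4e and Icam1, the Toll-like receptor gene Tlr1, the lipopolysaccharide co-receptor gene Cd14, and Tnfrsf1b, a receptor for TNF. Cd14 passed in 3 of 12 fits that left out 1 array. Of 24 cytokines and growth factors, Il1b passed above and Tnf and Tnfsf9 below, with a median of 0.09. Of 23 chemokines, 3 passed above, Cxcl3, Cxcl16 and Ccl3, and 0 below, with a median of 0.06. Cxcl16 and Ccl3 had interactions of 0.56 (SE 0.10, 95% interval 0.34 to 0.77, adjusted p = 0.0202) and 0.58 (SE 0.11, 95% interval 0.35 to 0.81, adjusted p = 0.0237), and passed in 6 and 3 of 12 fits that left out 1 array, with adjusted p up to 0.0633 and 0.0737. With each array centred on its median, Cxcl16, Ccl3 and Nfkb2 did not pass (adjusted p = 0.0856, 0.104 and 0.0683). Of 30 interferon response genes, Gbp2 and Gbp5 passed above and Irf1 below, with a median of 0.03.

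On the list of 24 genes of growth factor withdrawal and FOXO transcription factors, 4 passed below and 0 above, against 0.507% and 0.523% of all genes, and the median was -0.30. At 3 h, 11 of the 24 fell and 3 rose, against 2.53% and 2.80% of all genes. Only 2 of the 24 averaged below the array median, so these shares of all genes are not matched for expression level. Sesn1, a stress-induced regulator of growth signalling, had an interaction of -0.79 (SE 0.13, 95% interval -1.06 to -0.51, adjusted p = 0.0108), and Tob1, an antiproliferative protein gene, -0.73 (SE 0.12, 95% interval -0.99 to -0.48, adjusted p = 0.0108). Irs2, an adaptor of insulin receptors, had -0.77 (SE 0.15, 95% interval -1.10 to -0.45, adjusted p = 0.0298), and Foxo3 itself -0.68 (SE 0.12, 95% interval -0.93 to -0.43, adjusted p = 0.016). All 4 had effects at 1 h between -0.10 and 0.13. Irs2 and Foxo3 passed in 4 and 10 of 12 fits that left out 1 array, with adjusted p up to 0.0904 and 0.0549. All groups lacked the M-CSF source, and its part in these values was not tested. Of 27 G protein-coupled receptors, 5 passed below, P2ry1, Gpr183, S1pr1, P2ry6 and Ptger4, and 2 above, Gpr18 and Hcar2, with a median of -0.09. P2ry6 passed in 5 of 12 fits that left out 1 array.

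Of 30 iron-handling genes, Slc11a2 and Cp passed above, 0 passed below, and the median was 0.03. Slc11a2 (Entrez gene 18174), the iron importer DMT1, measured 7.30, 7.71 and 7.72 with PBS and 8.28, 8.30 and 8.34 with hepcidin at 1 h, and 7.78, 7.77 and 7.68 with PBS against 9.11, 9.11 and 9.17 with hepcidin at 3 h. The hepcidin arrays were above PBS at both times and highest at 3 h. Its interaction of 0.66 (SE 0.14, 95% interval 0.35 to 0.96, adjusted p = 0.0484) passed in only 1 of 12 fits that left out 1 array, with adjusted p up to 0.135, and not with each array centred on its median (adjusted p = 0.105). Cp, which encodes the ferroxidase ceruloplasmin, had an interaction of 0.98 (SE 0.18, 95% interval 0.58 to 1.39, adjusted p = 0.0251), from PBS values below the array median, and passed in 3 of 12 such fits, with adjusted p up to 0.073. Slc40a1 (Entrez gene 53945), which encodes ferroportin, the iron exporter that hepcidin binds, measured 8.29, 8.27 and 8.32 with PBS and 8.17, 8.27 and 8.17 with hepcidin at 1 h, and 8.90, 8.87 and 8.95 with PBS against 8.87, 8.67 and 8.73 with hepcidin at 3 h. Both treatments were higher at 3 h, and the interaction of -0.05 (SE 0.10, 95% interval -0.26 to 0.16, adjusted p = 0.914) did not pass. Tfrc, the transferrin receptor, had an interaction of -0.13 (SE 0.16, 95% interval -0.49 to 0.22, adjusted p = 0.849) that did not pass, nor did any of 9 BMP and SMAD targets, whose median was 0.07.

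Of 23 genes of the endoplasmic reticulum stress and amino acid response, Herpud1 and Slc7a11 passed above and 0 below, with a median of 0.20. Slc7a11 was also the 1 gene of 16 on the NRF2 and metal list that passed. Il6 (Entrez gene 16193) lay between 2.90 and 3.34 in all 12 arrays, below the array median, and its interaction of 0.15 (SE 0.12, 95% interval -0.11 to 0.41, adjusted p = 0.74) did not pass. Genes of macrophage identity (20 on the array, median -0.01), hypoxia and glycolysis (20, median -0.01), LXR and sterols (16, median 0.01), the cell cycle (21, median -0.06) and heat shock (12, median 0.09) had 0 members that passed in either direction.

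**Figure D5:**
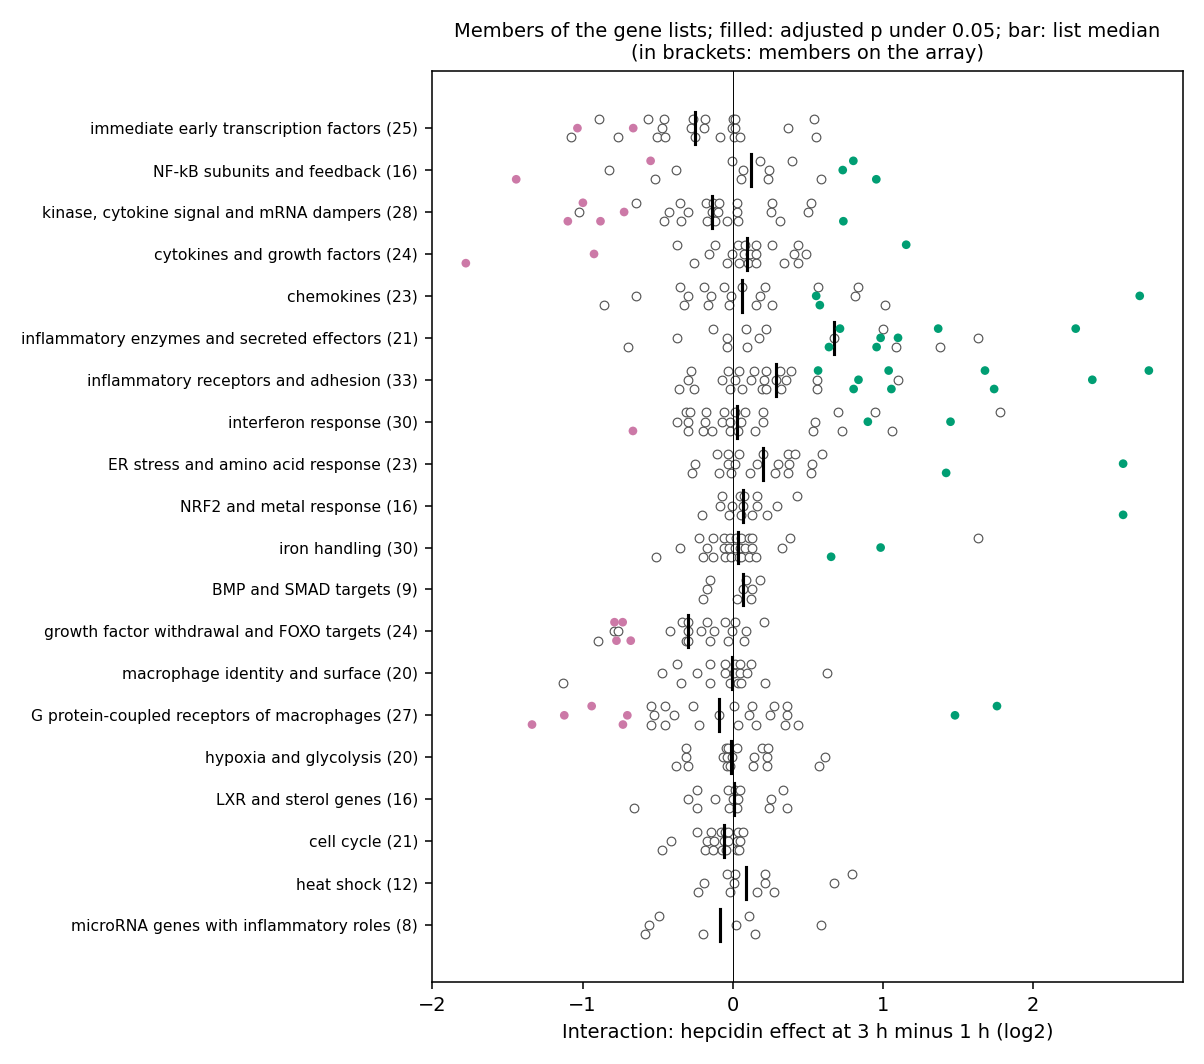
Interaction (horizontal axis, log2) of every list member on the array, 1 row per list with the number of members in brackets, filled green or pink where it passed above or below, and a bar at the list median. The inflammatory enzymes have the highest median, 0.67, and the FOXO list the lowest, -0.30.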

How the data were processed

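RNA of 12 macrophage samples was hybridised to Affymetrix arrays, 1 array a sample. The authors deposited log2 values for 25429 probe sets, summarised by RMA, and Partek is also named, per the submitters' processing notes. The log base was read from the range of the values, and no genome build is given in the sources used here. The 754 probe sets without a gene symbol were left out, and the remaining 24675 each had 1 gene. No further normalization was applied. A linear model with 4 group means was fitted with limma 3.58.1 in R 4.3.3 and moderated with eBayes. P-values were adjusted by the Benjamini-Hochberg method over all genes within each comparison, and a gene passed at an adjusted p under 0.05. All adjusted p-values in the text come from limma's moderated test, except those given without moderation of the variances. The latter come from ordinary t statistics of the same linear model. The model was tested on simulated data.

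The time classes used group means only, so a member's interaction is printed beside its class and nothing is read from it. Genes were named by 1 rule: the 15 highest and 15 lowest interactions that passed, up to 8 of each class, up to 4 of each list that passed, 8 genes tied to hepcidin or inflammation, and the genes nearest each class border. The rule, the classes and the 26 lists were chosen with earlier results of these data known. Alternatives were the prior, normalization, filter, weights, thresholds, class limits, a replicate block and leaving out each array.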

Additional observations from a re-analysis of the deposited data

Results flagged for a closer look

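The effect of hepcidin differed between 1 h and 3 h for 254 genes by limma's test of the difference itself, 129 above and 125 below. Values below are the interaction, the 3 h effect minus the 1 h effect on the log2 scale, for the named genes that passed.

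Receptors and surface molecules above were Fpr2 (2.77), Tarm1 (2.39), Gpr18 (1.76), Fas (1.74), Gpr84 (1.68) and Hcar2 (1.48). Transporters and membrane proteins above were Slc7a11 (2.60), Slco3a1 (1.65), Tmem176b (1.65), Tmem176a (1.46) and Slc11a2 (0.66). Enzymes above were Acod1 (2.28), Nox1 (1.43), Nos2 (1.37), Mmp14 (1.10) and Cp (0.98). Cytokine and chemokine genes above were Cxcl3 (2.71), Il1b (1.16), Ccl3 (0.58) and Cxcl16 (0.56). Signalling and other genes above were Gbp5 (1.45), Herpud1 (1.42), Lancl3 (0.99), Tnip1 (0.96), Gbp2 (0.90), Traf1 (0.80), Irak3 (0.74) and Nfkb2 (0.73).

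Early inflammatory genes below were Tnfsf9 (-1.78), Nfkbiz (-1.44), Mir155hg (-1.20), Ier3 (-1.03), Tnf (-0.92), Junb (-0.66), Irf1 (-0.66) and Nfkbia (-0.55). The messenger decay genes Zfp36l1 (-1.10) and Zfp36 (-0.997) were also below. Receptor and signalling genes below were P2ry1 (-1.34), Arhgap25 (-1.18), Map2k6 (-1.13), Gpr183 (-1.12), Rgs2 (-0.88), Irs2 (-0.77) and Ptger4 (-0.70). Lipid genes below were Angptl4 (-1.41), Abcd2 (-1.16) and Lpin1 (-1.09). Other genes below were Fam214a (-1.37), Rnf144b (-1.34), Lbh (-1.29), Snx24 (-1.28), Sesn1 (-0.79), Tob1 (-0.73) and Foxo3 (-0.68).

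Of the 754 probe sets without a gene symbol, 15 also passed when they were tested with all others, and they enter no comparison above. Groups of 3 arrays are too small for a test of single outlying arrays, and none was made.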

How the results depend on the processing

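With 3 arrays a group and an interaction that combines 4 means, precision limits the calls: with each array left out in turn, the interaction passed for 141 to 234 genes, 76 to 130 above and 61 to 114 below. The same fits gave 99 to 139 genes for the 1 h effect, 837 to 1287 for the 3 h effect, 23 to 126 for the PBS change and 721 to 1178 for the hepcidin change. They gave 7 to 15 transient genes, 41 to 51 sustained, 84 to 110 delayed rises and 31 to 44 delayed falls. Of the 55 named genes that passed, 37 passed in all 12 such fits and 18 did not; of these, Lancl3 passed in 2 of 12 with adjusted p up to 0.108. Fewer arrays were fitted there.

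A trended and robust prior gave 433 interactions (204 above, 229 below) and 319 PBS changes. Genes above the median level alone gave 412 interactions, 226 of them below, and 333 PBS changes, with fewer genes tested. Centring each array on its median gave 181 (75 above, 106 below), 177 of them shared with the 254, and 64 PBS changes; it moved the median interaction of all genes to -0.03. Array weights gave 285 PBS changes and turned the interaction of Cd69 from -0.0337 to 0.044. It lay between -0.19 and 0.155 with each array left out, and was positive without any of 4 of them (0.114, 0.0535, 0.0174 and 0.155). An adjusted p under 0.1 passed 391, 198 of them below, and 248 PBS changes. A fold minimum of 1.5 left 480 genes for the 3 h effect, 42 PBS changes and 407 hepcidin changes.

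At a minimum of 1.5-fold the classes held 56 transient and 116 sustained genes, 230 delayed rises and 214 delayed falls. At 3-fold they held 4, 18, 36 and 0. With the limit on the share of the 1 h effect kept set at 1 part in 3, 3 genes were transient. Without moderation of the variances, 21 of the named genes no longer passed, among them Nfkbiz (adjusted p = 0.0575), Cxcl3 (0.0586), Il1b (0.055), Angptl4 (0.0522) and Mir155hg (0.0522). Where counts moved for another reason than fewer genes, fewer arrays or a changed threshold, the cause was not tested.

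Whether the replicate numbers of the titles pair the samples is not stated, and the arrays did not all deviate together by number: of 18 pairs of same-numbered arrays, 9 had deviations correlated over 0.1, with r from -0.0054 to 0.246, and 14 correlated best with their own number, a hint of pairing from the data and not the design. Because no label states a pairing, the samples were analysed as unpaired, and these correlations do not show that they were. With the number as a replicate block, 348 interactions passed, 236 of them shared with the 254, and 240 PBS changes.

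Over the other settings 631 values of single genes kept direction and side of the threshold, 34 no longer passed, 19 newly passed and 1 changed sign. Over the arrays left out, 671 kept both, 150 no longer passed, 3 newly passed and 4 changed sign.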
